A study of Homo sapiens with 9 samples.

Results

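The genes described here are 9 members of the tumour necrosis factor (TNF) superfamily that carry costimulatory signals between lymphocytes: the receptor genes CD40, CD27, TNFRSF8 (CD30), TNFRSF9 (4-1BB) and TNFRSF4 (OX40), and the ligand genes CD70, TNFSF9, TNFSF8 and TNFSF4. They were chosen by symbol, 5 receptors and 4 ligands out of 17687 genes with a symbol on the array, and each of the 9 was measured by 1 probe set. The ligand of CD40 was not analysed here.

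The cells were L-1236, an established line from Hodgkin lymphoma, and RNA was measured on human Clariom S arrays. The first group was the knockout clone g2_1, made with the vector lentiCRIPSPR_v2-LTA_g2, whose guide targets the second exon of LTA, the gene for the cytokine lymphotoxin alpha. The other knockout group was the clone g3_4, made with lentiCRIPSPR_v2-LTA_g3, whose guide targets the fourth exon. The control cells, called v2, carried lentiCRIPSPR_v2 with no LTA guide named in the labels, so all 3 groups had received the vector. The sample titles call these control cells wild type. There were 3 arrays in each group, 9 in all, numbered 1 to 3. The labels describe knockout clones that had been kept alive in medium conditioned by L-1236 cells, and all 3 groups were in normal medium for the last 72 h of culture. Conditioned medium is not mentioned for the control cells, and whether these too were a single-cell clone is not clear from the labels. Each knockout group is 1 clone, so an effect of the guide and a peculiarity of the clone cannot be told apart within it. The labels leave unsaid whether the 3 arrays of a group are separate cultures, and the p-values therefore reflect a spread among arrays that may be only technical.

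Costimulatory TNF receptors are membrane proteins that gather TRAF adaptor proteins at their tails when a trimeric ligand binds, and so switch on NF-kB signalling, survival and activation. CD40 on B cells and other antigen-presenting cells receives help from T cells, CD27 on T cells and memory B cells binds CD70 on activated lymphocytes, and 4-1BB and OX40 are best known on activated T cells. CD30 is the diagnostic surface marker of Hodgkin and Reed-Sternberg cells, which are the tumour cells of Hodgkin lymphoma. CD70 and CD40 are also well known on these cells.

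Values are log2 signals after RMA, a procedure that corrects background, equalises the distributions of the arrays and summarises probes, so 1 unit is a doubling. The levels of different genes are not compared, because probe sets bind with different strength. The first quartile of the tested transcript clusters lay at 4.62 to 4.66 on the 9 arrays and the third quartile at 8.58 to 8.63. Values near the first quartile lie close to the floor of the array, and no detection flags were given. LTA, the targeted gene, was at 7.54 ± 0.43 in g2_1, 6.93 ± 0.32 in g3_4 and 11.24 ± 0.29 in the controls (SD, n = 3 each), and which part of the transcript its probes cover is not known here. Of 16 markers of Hodgkin cells, 10 lay above the third quartile on all 3 control arrays and 6 on all 9 arrays. The T cell receptor genes CD3D, CD3E and CD3G had group means between 4.03 and 4.88, close to the first quartile. The mean over 10 T cell markers was 5.83 to 5.87 on the g2_1 arrays, 5.71 to 5.89 on the g3_4 arrays and 5.35 to 5.58 on the control arrays. Of those 10 markers, CD2 and CD4 were not near the floor. They were higher in both clones, with clone means above the third quartile, and lowest on control array 1. CD2 had means of 9.40 in g2_1, 9.35 in g3_4 and 7.82 in control cells. CD4 had means of 9.69 in g2_1 and 9.59 in g3_4, and was at 8.08, 8.91 and 8.82 on the control arrays. The part of CD2 and CD4 in the results was not tested.

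A gene was called where its adjusted p in limma, with Benjamini-Hochberg adjustment over all 20893 tested transcript clusters, was under 0.05. In g2_1 against control, 4 of the 9 genes were called, where 14.3% of all tested transcript clusters were called. They were 2 higher genes, against 6.19% of all transcript clusters, and 2 lower ones, against 8.06%. In g3_4 against control, 4 of 9 were likewise called, where 14.3% of all were. Here 1 gene was higher, against 6.12% of all, and 3 were lower, against 8.16%. Called the same way in both clones were 3 of 9, against 11.4% of all transcript clusters. With a change of at least 1 log2 unit also required, 3 of 9 passed in g2_1 (4.19% of all), 1 of 9 in g3_4 (4.24% of all) and 1 of 9 in both (3.61% of all). The clones are compared with the same control arrays, so these are not independent counts. The 9 genes were also chosen with earlier results of these data known, so the counts describe the family and do not test it. CD40 and CD27 fell in both clones, TNFRSF8 rose in both, and CD70 rose in g2_1 and fell in g3_4. The other 5 genes passed in neither clone. The median change of the 9 genes with both clones averaged was 0.04 on the log2 scale, beside 0.04 over all tested transcript clusters. With both clones averaged 3 of 9 were called, where 18.0% of all were. All 6 clone arrays lay on one side of all 3 control arrays for 3 of the 9 genes, a pattern that 20.4% of tested transcript clusters showed. Centring each array on its median would raise the median change of all transcript clusters from 0.04 to 0.15 with both clones averaged, and of all calls the share that fell would be 34.0% in place of 56.6% in g2_1 and 36.5% in place of 57.2% in g3_4. None of the 9 genes changed sign under it in any of the 4 comparisons.

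**Figure D1:**
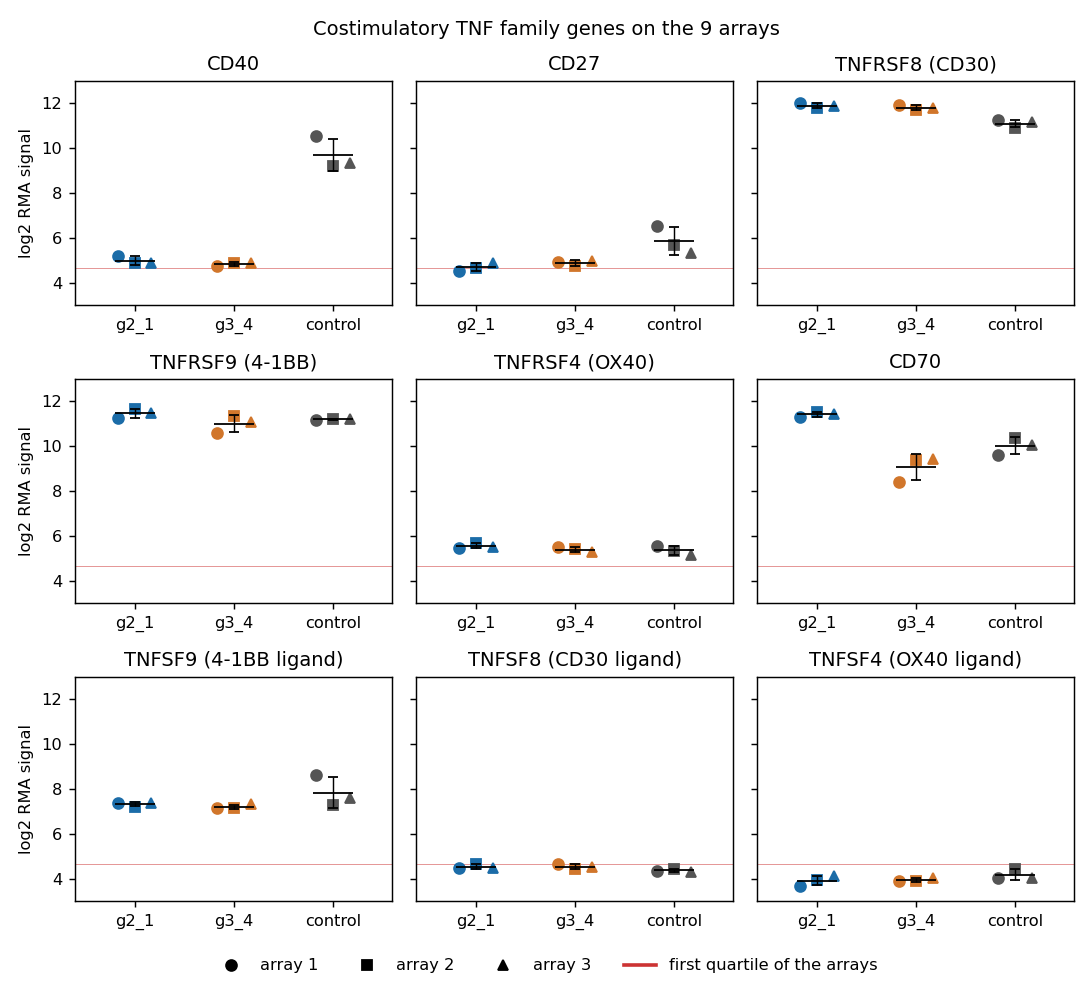
Log2 RMA signal (y axis) of the 9 genes on each array of g2_1, g3_4 and control (x axis); symbols mark the array number, black bars the mean ± SD of 3 arrays, and the red line the first quartile of the arrays at 4.62 to 4.66. CD40 sits near the red line on all 6 clone arrays and at 9.22 or above on the control arrays, while CD70 is highest in g2_1 and lowest in g3_4.

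CD40, the receptor through which T cells activate B cells, fell to near the floor of the array in both clones. Its values were 5.21, 4.91 and 4.88 on the g2_1 arrays, 4.76, 4.90 and 4.90 on the g3_4 arrays, and 10.53, 9.22 and 9.36 on the control arrays. All clone arrays lay far below all control arrays and within 1 unit of the first quartile of the array. The fall was 4.70 in g2_1 (log2 fold change -4.70, SE 0.28, limma adjusted p = 8.9e-07) and 4.85 in g3_4 (log2 fold change -4.85, SE 0.28, adjusted p = 7.1e-07). In linear terms the signal was 26.1-fold lower in g2_1 and 28.8-fold lower in g3_4, sizes that the floor of the array limits. The change ranked 36th from the bottom of 20893 transcript clusters in g2_1 and 32nd in g3_4. Between g2_1 and g3_4, CD40 had a difference of 0.15 with a 95% confidence interval of -0.46 to 0.76, and did not pass (adjusted p = 0.997). Control array 1 was 1.24 above the mean of the other control arrays, and without it the values were -4.29 in g2_1 and -4.44 in g3_4.

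CD27, the receptor of CD70, also fell in both clones. It was at 4.54, 4.69 and 4.88 in g2_1, at 4.95, 4.74 and 5.00 in g3_4, and at 6.54, 5.71 and 5.33 in control cells. The clone arrays did not overlap the control arrays, yet the lowest control array was only 0.33 above the highest clone array. CD27 was 2.23-fold lower in g2_1 (log2 fold change -1.16, SE 0.25, adjusted p = 0.00916) and 1.95-fold lower in g3_4 (-0.96, SE 0.25, adjusted p = 0.0235). Much of the spread was among the control arrays, where array 1 was 1.02 above the mean of the others. Without control array 1 the fall was smaller and still passed, at -0.82 in g2_1 (adjusted p = 0.0031) and -0.62 in g3_4 (adjusted p = 0.0148). The call in g3_4 was lost when any 1 of the g3_4 arrays was left out, with adjusted p = 0.0616 without array 1, 0.0911 without array 2 and 0.0548 without array 3. It was also lost in a fit of only g3_4 and control (adjusted p = 0.0608).

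TNFRSF8 encodes CD30, the marker by which Hodgkin cells are recognised, and its transcript rose in both clones. Its values were 12.01, 11.79 and 11.88 in g2_1, 11.92, 11.72 and 11.79 in g3_4, and 11.25, 10.91 and 11.16 in control cells. Every clone array was above every control array, and the clones overlapped each other. The signal was 1.73-fold higher in g2_1 (log2 fold change 0.79, SE 0.12, adjusted p = 0.000969) and 1.63-fold higher in g3_4 (0.70, SE 0.12, adjusted p = 0.00202). Leaving out any 1 array moved the rise between 0.69 and 0.86 in g2_1 and between 0.60 and 0.78 in g3_4, with adjusted p under 0.05 each time. The difference between the clones was 0.08, with a 95% interval of -0.17 to 0.34.

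TNFRSF9 encodes 4-1BB, a receptor of activated T cells, and it was called in neither clone. It had 11.27, 11.67 and 11.50 in g2_1, 10.58, 11.33 and 11.10 in g3_4, and 11.19, 11.20 and 11.22 in control cells. The g2_1 arrays lay above the tightly grouped control arrays, and the g3_4 arrays lay on both sides of them. Neither comparison passed, with 0.28 in g2_1 (95% interval -0.11 to 0.66, adjusted p = 0.375) and -0.20 in g3_4 (-0.58 to 0.18, adjusted p = 0.545). Between g2_1 and g3_4, TNFRSF9 had a difference of 0.48 (0.09 to 0.86), which did not pass after adjustment (adjusted p = 0.913). The g3_4 value rested on array 1, without which it was 0.01.

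TNFRSF4, which encodes OX40, was also called in neither clone. It was at 5.49, 5.70 and 5.51 in g2_1, at 5.50, 5.43 and 5.27 in g3_4, and at 5.57, 5.35 and 5.16 in control cells, with overlap of every pair of groups. Its changes were 0.21 in g2_1 (95% interval -0.07 to 0.48, adjusted p = 0.349) and 0.04 in g3_4 (-0.23 to 0.31, adjusted p = 0.892), and neither passed.

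**Figure D2:**
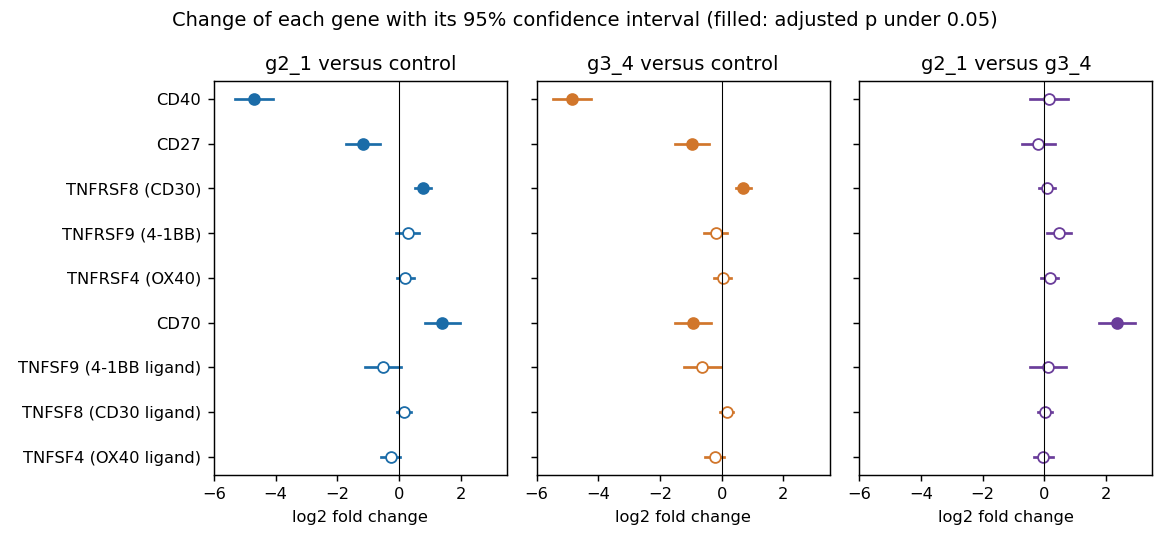
Log2 fold change (x axis) of each of the 9 genes (y axis) in g2_1 versus control, g3_4 versus control and g2_1 versus g3_4, with 95% confidence intervals as lines; filled circles have an adjusted p under 0.05. CD40, CD27 and TNFRSF8 lie on the same side in both clones, and CD70 is at 1.41 in g2_1 and -0.94 in g3_4.

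CD70, the ligand of CD27, was the 1 gene of the 9 called between the clones. Its signal was 11.30, 11.53 and 11.46 on the g2_1 arrays, 8.41, 9.40 and 9.43 on the g3_4 arrays, and 9.61, 10.37 and 10.08 on the control arrays. No pair of groups overlapped: g2_1 was highest, g3_4 lowest and the control cells lay between, with a gap of only 0.18 between g3_4 array 3 and control array 1. CD70 rose 2.66-fold in g2_1 against control (log2 fold change 1.41, SE 0.26, adjusted p = 0.00431). It fell 1.92-fold in g3_4 against control (-0.94, SE 0.26, adjusted p = 0.0358). CD70 was the 1 of 20893 transcript clusters (0.00479%) called in opposite directions in the clones, a count that rests on the call in g3_4. With the clones averaged these changes largely cancelled, to 0.24 (adjusted p = 0.574), and CD70 was not called there.

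The direct comparison of the clones, in which no control array enters the difference, gave CD70 a value 2.35 higher in g2_1 than in g3_4 (SE 0.26, 95% interval 1.77 to 2.93, adjusted p = 0.0115), a 5.10-fold difference. This was the largest positive difference of all 20893 transcript clusters, of which 11 (0.0526%) were called, and it ranked 5th by p. No other of the 9 genes was called between the clones. The labels do not say whether arrays with equal numbers are pairs. With the array number as a block over all 9 arrays, control included, the adjusted p of CD70 was 0.000536 and 27 transcript clusters were called. The rise in g2_1 passed without any 1 of the 9 arrays, with values of 1.21 to 1.58. The fall in g3_4 was less secure: without g3_4 array 1, the lowest, it was -0.61 (adjusted p = 0.0837), without control array 2 it was -0.77 (adjusted p = 0.126) and without control array 3 it was -0.91 (adjusted p = 0.0845). It was also lost when g2_1 array 1, 2 or 3 was left out, which changes only the shared spread (adjusted p of 0.051, 0.0576 and 0.0565), and in a fit of only g3_4 and control (0.0885). The difference between the clones kept a value of 2.02 to 2.53 without any 1 array, but its adjusted p was 0.135 without g2_1 array 2 and 0.0743 without g2_1 array 3.

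**Figure D3:**
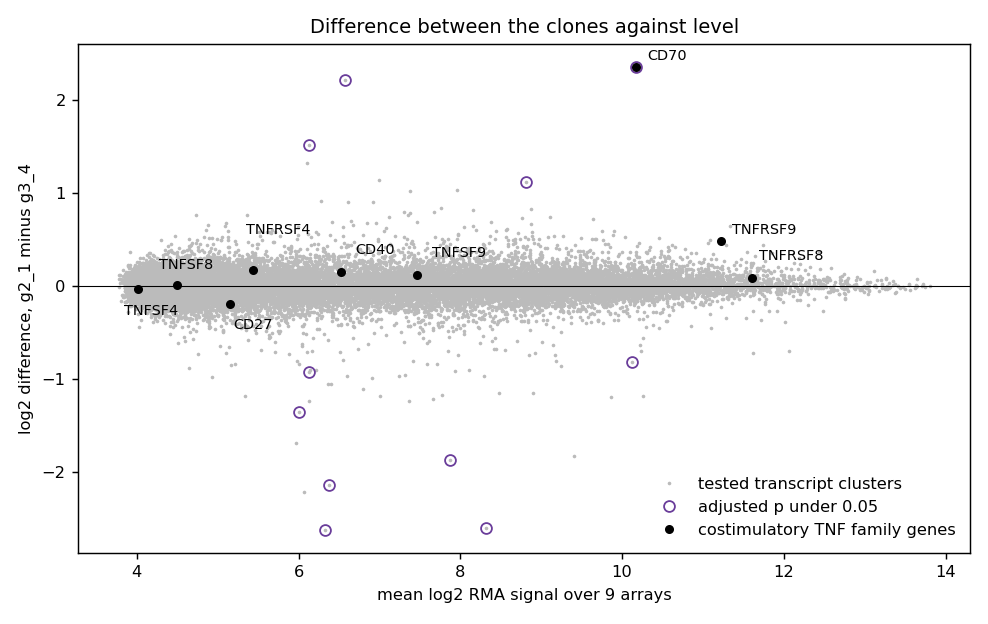
Difference g2_1 minus g3_4 in log2 signal (y axis) against the mean log2 signal over the 9 arrays (x axis) for 20893 tested transcript clusters in grey; purple rings mark the 11 with an adjusted p under 0.05 and black dots the 9 costimulatory genes. CD70 stands at 2.35, and the other 8 genes lie between -0.19 and 0.48.

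TNFSF9 encodes the ligand of 4-1BB and lies next to CD70 on chromosome 19. It had 7.38, 7.22 and 7.40 in g2_1, 7.16, 7.18 and 7.33 in g3_4, and 8.64, 7.29 and 7.62 in control cells. The clone arrays were close together, and control array 1 stood apart, 1.19 above the mean of the other control arrays. Its changes of -0.52 in g2_1 (95% interval -1.10 to 0.07, adjusted p = 0.263) and -0.63 in g3_4 (-1.21 to -0.04, adjusted p = 0.166) did not pass. Without control array 1 they were -0.12 and -0.23, and without control array 2 the value in g3_4 was -0.91 and passed (adjusted p = 0.0374). Control array 1 was the highest control array for 5 of the 9 genes, as it was for 40.8% of all tested transcript clusters, and its RNA integrity number was 10 against 9.5 for the other control arrays. The arrays numbered 1 of both clones also had 10, and the part of RNA integrity in these values was not tested.

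The ligand genes of CD30 and OX40 stayed near the floor of the array. TNFSF8 was at 4.50, 4.66 and 4.49 in g2_1, at 4.66, 4.44 and 4.52 in g3_4, and at 4.36, 4.46 and 4.33 in control cells. Its changes were 0.17 in g2_1 (95% interval -0.05 to 0.39, adjusted p = 0.347) and 0.16 in g3_4 (-0.06 to 0.38, adjusted p = 0.381). TNFSF4 was at 3.70, 3.94 and 4.11 in g2_1, at 3.89, 3.92 and 4.06 in g3_4, and at 4.04, 4.46 and 4.05 in control cells, under the first quartile on every array. Its changes were -0.27 in g2_1 (-0.58 to 0.05, adjusted p = 0.281) and -0.23 in g3_4 (-0.54 to 0.09, adjusted p = 0.373). Neither ligand passed, and at such signals a small level cannot be told from none.

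The 9 genes hold 4 pairs of receptor and ligand, which differed in what passed. CD27 fell in both clones while its ligand CD70 went up in g2_1 and down in g3_4. CD30 rose in both clones while its ligand gene stayed near the floor. OX40 and its ligand gene passed on neither side in either clone. For 4-1BB neither side passed either, and the receptor was at 11.48 ± 0.20 in g2_1, 11.00 ± 0.38 in g3_4 and 11.20 ± 0.02 in control cells, and its ligand gene was at 7.33 ± 0.10 in g2_1, 7.22 ± 0.09 in g3_4 and 7.85 ± 0.70 in control cells (SD, n = 3 each).

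The genes lie on 5 chromosomes, and their neighbours were examined in the order of measured genes along the chromosome, 20 on each side (34 in all for TNFRSF4). The row IDs place TNFRSF4, TNFRSF9, TNFRSF8 and TNFSF4 on chromosome 1, TNFSF8 on 9, CD27 on 12, TNFSF9 and CD70 on 19 and CD40 on 20. Around CD40, the 40 neighbours had a median change of -0.05 with both clones averaged, and NCOA5 and CDH22 on either side were at -0.02 and -0.23. PLTP, the gene of a phospholipid transfer protein 6 places away, was the lowest neighbour at -2.54, and PTGIS was the highest at 1.16. With both clones averaged 8 of the 40 were called, 3 higher and 5 lower. Around CD27 the median was 0.07, the lowest neighbour was at -0.54 and the highest, CD9, was at 1.30. Of its 40 neighbours 6 were called with both clones averaged, 4 higher and 2 lower. LTBR and TAPBPL on either side of CD27 were at 0.09 and -0.26 and did not pass. TNFRSF8 had a neighbour median of 0.05. The adjacent gene MIIP was its highest neighbour at 0.99 and also rose in both clones, with 1.06 in g2_1 (adjusted p = 0.000261) and 0.91 in g3_4 (adjusted p = 0.000765). Its lowest neighbour was AGTRAP at -1.48. With both clones averaged 5 neighbours of TNFRSF8 were called, 2 higher and 3 lower. VPS13D, on the other side of TNFRSF8, was at -0.25 and did not pass. For CD70, the neighbour median of the difference g2_1 minus g3_4 was -0.06, the range was -0.42 to 0.33, and 0 of 40 neighbours were called. The genes on either side of it, TNFSF9 and TNFSF14, both of which encode TNF ligands, differed between the clones by 0.11 and -0.18 and did not pass.

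**Figure D4:**
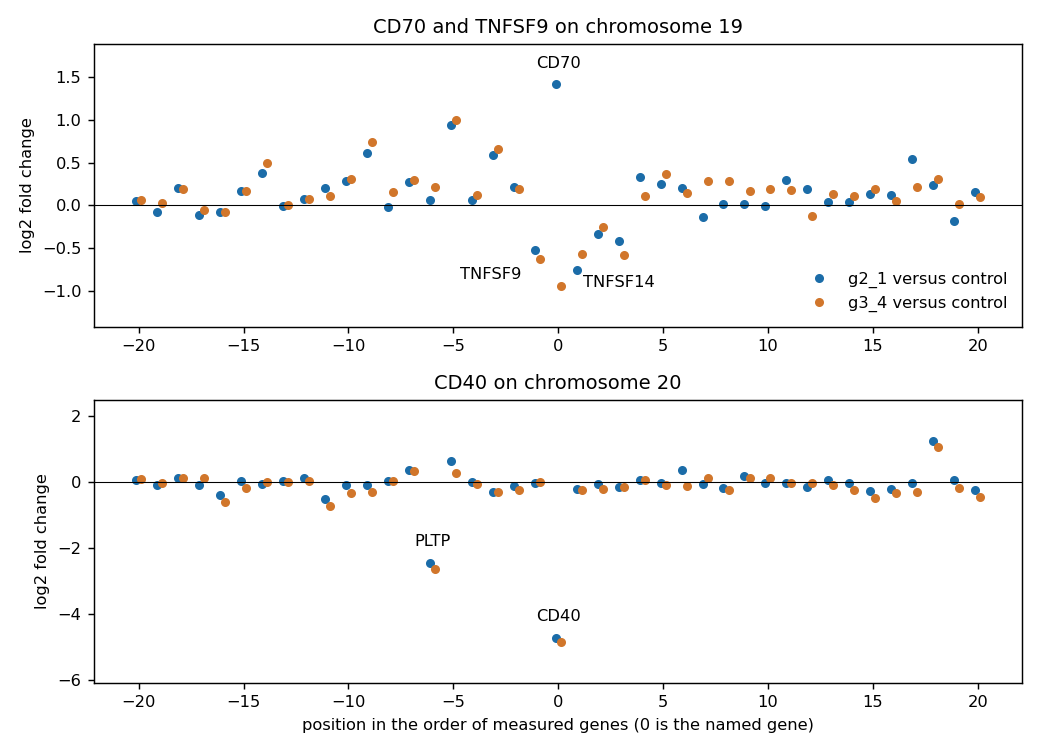
Log2 fold change against control (y axis) of CD70 or CD40 and the 20 measured genes on each side (x axis, position in gene order), in g2_1 and g3_4. CD70 is at 1.41 in g2_1 and -0.94 in g3_4 among neighbours whose values in the clones differ by at most 0.42, and CD40 at -4.70 and -4.85 has neighbours with a median of -0.05 with both clones averaged.

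Promoter sequences from RefSeq (GRCh38.p14) were matched by symbol for 5 of the 9 genes, TNFRSF8, CD27, TNFRSF9, TNFSF9 and TNFSF4. The 250 bases before the start are shown for a receptor gene that rose (TNFRSF8), for one that fell (CD27), and for one that passed in neither clone (TNFRSF9), each 5′ to 3′ on the strand of the gene. Capitals mark matches on either strand to a loose form of the letters bound by NF-kB, namely GGG and CC with any 5 bases between them.
TNFRSF8, chr1:12063053-12063302, plus strand: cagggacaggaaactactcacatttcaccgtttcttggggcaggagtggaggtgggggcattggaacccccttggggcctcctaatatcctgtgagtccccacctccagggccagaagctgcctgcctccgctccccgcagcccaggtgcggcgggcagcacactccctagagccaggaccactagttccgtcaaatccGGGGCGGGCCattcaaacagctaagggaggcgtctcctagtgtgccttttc
CD27, chr12:6443642-6443891, plus strand: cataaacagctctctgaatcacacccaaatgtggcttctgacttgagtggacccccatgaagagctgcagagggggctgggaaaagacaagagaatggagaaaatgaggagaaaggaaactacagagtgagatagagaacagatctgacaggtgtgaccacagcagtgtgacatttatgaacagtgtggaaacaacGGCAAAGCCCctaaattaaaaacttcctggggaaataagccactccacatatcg
TNFRSF9, chr1:7940840-7941089, minus strand: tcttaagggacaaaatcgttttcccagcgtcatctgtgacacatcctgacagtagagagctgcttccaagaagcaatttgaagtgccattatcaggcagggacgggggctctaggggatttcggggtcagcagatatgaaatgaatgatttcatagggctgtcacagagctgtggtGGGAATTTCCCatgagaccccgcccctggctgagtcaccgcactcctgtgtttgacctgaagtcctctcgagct
A match to the loose form occurred in 4 of these 5 promoters and in 54.4% of the 35116 promoters of the table. The TNFRSF9 promoter holds 2 overlapping matches in its capitals. The one that starts 74 bases before the gene also fits a stricter form, GGGA and TT and CC with any single base after GGGA and after TT, which was chosen after the sequences were seen and occurs in 1.26% of promoters on either strand. A search of both strands for TTCNNNGAA, letters bound by STAT factors in which N is any base, found 1 match in TNFRSF9 and 0 in TNFRSF8 and CD27, against 6.57% of all promoters. The AP-1 letters TGANTCA, also chosen after the sequences were seen, were found in CD27 and TNFRSF9 and likewise in 6.57% of all. These are descriptions of letters and not of sites in use.

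Genes with a profile like those of the called receptors were sought by Pearson correlation over the 9 arrays among 2718 genes whose signal spanned at least 1 log2 unit. The arrays fall into 3 groups, so high values mostly reflect the contrast of the groups. Nearest to CD40 were UGT2B15 (r = 0.999), CREB3 (r = 0.999) and MFSD2A (r = 0.999), each lower in both clones and highest on control array 1. UGT2B15 encodes a glucuronosyltransferase, CREB3 a transcription factor anchored in the endoplasmic reticulum and MFSD2A a lipid transporter. CD27 was followed most closely by TGFBR3 (r = 0.995), a coreceptor of transforming growth factor beta, FXR2 (r = 0.986) and ST20-MTHFS (r = 0.984). For TNFRSF8 the nearest were TMEM14A (r = 0.983), the respiratory chain gene NDUFB3 (r = 0.981) and FGGY (r = 0.979). For CD70, which was added after its values were seen, they were OXR1 (r = 0.971), LRRC1 (r = 0.922) and TRIM9 (r = 0.922), all higher in g2_1 than in g3_4, by 0.90, 0.62 and 0.76. None of OXR1, LRRC1 and TRIM9 was called between the clones, and each was lowest on g3_4 array 1, as CD70 was. Among the 9 genes themselves, the highest positive correlations were of CD27 with CD40 (r = 0.891, n = 9) and with TNFSF9 (r = 0.838, n = 9). CD27, CD40 and TNFSF9 each had their highest value on control array 1. TNFRSF9 followed CD70 over the arrays (r = 0.835, n = 9), with the lowest value of both genes on g3_4 array 1. CD40 and TNFRSF8 ran opposite to each other (r = -0.908, n = 9).

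Other parts of the costimulatory system were described by lists chosen with earlier results of these data known. A list gene counts as risen or fallen when called the same way in both clones, as 4.48% and 6.97% of all transcript clusters were. Of 11 other costimulatory TNF ligands and receptors measured, 0 rose and 0 fell. Their median was -0.08 for the clones averaged, with values from -0.66 for TNFSF14 to 0.68 for TNFSF13B. TNFRSF14 was called in g2_1 alone (-0.50, limma adjusted p = 0.00958) and TNFSF13B in g3_4 alone (0.79, adjusted p = 0.0141). Both calls are given after their values were seen. TRAF adaptors and the noncanonical NF-kB genes, through which these receptors signal, likewise had 0 of 13 risen or fallen and a median of -0.05. Called in a single clone in this list, and named after their values were seen, were NFKB2, TRAF5, CYLD and TRAF1. NFKB2 was at -0.70 in g2_1 (limma adjusted p = 0.0304) and -0.59 in g3_4 (0.0657). TRAF5 was lower in g2_1 (-0.39, adjusted p = 0.0233), and CYLD was higher in g3_4 (0.47, adjusted p = 0.0484). TRAF1, named here after its values were seen, is an adaptor that NF-kB induces and was at 9.58 in g2_1, 9.06 in g3_4 and 8.62 in control cells, and passed in g2_1 (adjusted p = 0.000784) but not in g3_4 (0.0558). The difference of TRAF1 between the clones was 0.52, which did not pass (adjusted p = 0.535).

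The B7 and CD28 family, the other large class of costimulators, moved in both directions, with 3 of 12 genes fallen, 1 risen and a median of 0.07. CD80, a ligand of CD28 and CTLA4 on antigen-presenting cells, was at 5.92 ± 0.06 in g2_1, 5.79 ± 0.26 in g3_4 and 9.54 ± 0.45 in control cells (SD, n = 3 each). It fell by 3.62 in g2_1 and fell by 3.75 in g3_4 on the log2 scale (limma adjusted p = 6.2e-07 and 4.3e-07). CD86, which binds the same receptors and is named here for that reason after its values were seen, was at 11.20 in g2_1, 11.08 in g3_4 and 10.85 in control cells and passed in neither. The PD-1 ligand genes PDCD1LG2 and CD274 fell by 3.33 and fell by 2.20 with the clones averaged. HHLA2, a B7 family member, rose by 1.70, to 11.35 in g2_1 and 11.12 in g3_4, against 9.54 in control cells.

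Genes that CD40 signals are known to raise in B cells fell in 9 of 19 measured cases and rose in 1, with a median of -0.72 for the clones averaged beside 0.04 over all transcript clusters. LTA, the targeted gene, is one of the 9. The low-affinity IgE receptor gene FCER2 fell by 5.47 and CD80 fell by 3.68, while CD83, a maturation marker, rose by 0.54. The other 9 genes did not pass in both clones and are named after their values were seen. With the clones averaged, 5 of them had negative log2 values, CCL17 at -0.95, ICAM1 at -0.72, CD58 at -0.63, EBI3 at -0.34 and FAS at -0.33. The other 4 had positive ones, TRAF1 at 0.70, TNFAIP3 at 0.33, CD86 at 0.29 and IRF4 at 0.17. No CD40 ligand was added in this experiment as far as the labels say.

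**Figure D5:**
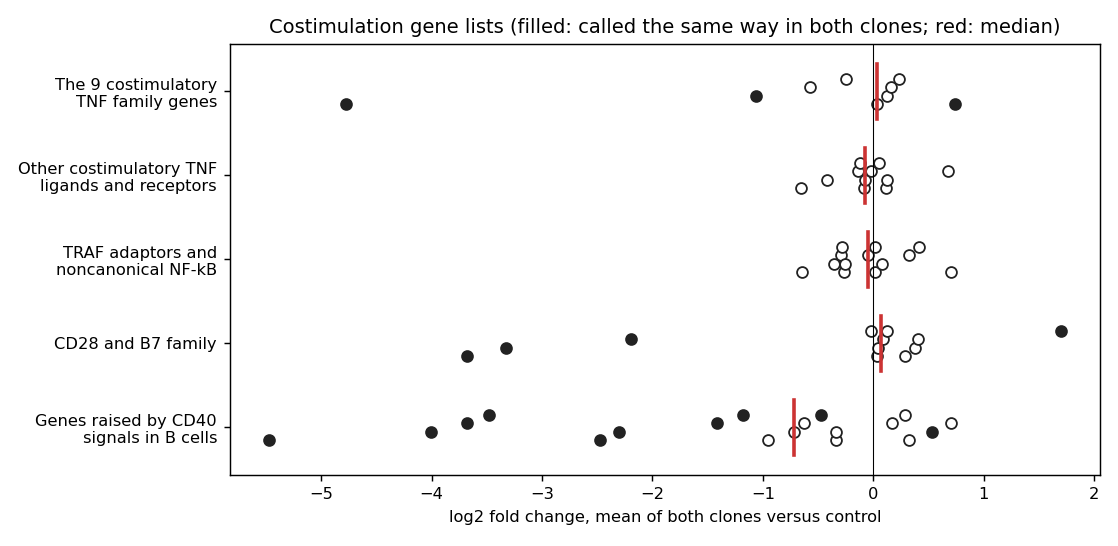
Log2 fold change of the mean of both clones versus control (x axis) for the genes of 5 lists (y axis); filled circles were called the same way in both clones and red bars are list medians. The 9 costimulatory genes range from CD40 at -4.78 to TNFRSF8 at 0.74, and the genes raised by CD40 signals have a median of -0.72.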

How the data were processed

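RNA of 9 arrays was labelled from 250 ng each. The deposited values are log2 signals that the authors made with RMA. The submitters' processing notes name Transcriptome Analysis Console 4.0, and the genome build is not given in the sources used here. RMA gives arrays similar distributions, so a change common to most genes could go unseen, and changes near the floor are compressed. The small number of arrays limits precision.

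Of 21448 rows, 555 with IDs of unmapped probe sets were not tested and 20893 were; 17705 had 1 symbol, 0 had several and 3188 are unnamed here, and all 17705 gene IDs matched RefSeq (GRCh38.p14), used for names and gene order. limma 3.58.1 in R 4.3.3 (lmFit, eBayes, 1 coefficient per group, all 9 arrays, two-sided) was checked on simulated data. P-values were adjusted by Benjamini-Hochberg over all tested rows. The members and lists were chosen with earlier results of these data known. Named are the 9 genes, LTA, up to 3 risen and 3 fallen genes of a list and the 3 most similar genes of each gene called the same way in both clones. Adjacent, lowest and highest neighbours were added after their values were seen, as were other exceptions where stated. Deviations from the group means of arrays with equal numbers correlated at 0.435, 0.191 and 0.310 between the clones. Between clones and control such values ran from 0.0426 to 0.298, some of them above the lowest between the clones. Whether the number pairs the clones with each other or with control is therefore not settled by them, and the labels do not say. With the block, calls over all transcript clusters against control went from 2979 to 3819 in g2_1 and from 2983 to 3771 in g3_4. Alternatives were the array block, centring, low-level filters, variance models, array weights, fewer groups or arrays, unmapped rows and a fold limit.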

Additional observations from a re-analysis of the deposited data

Results flagged for a closer look

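CD70 differed between the clones by the test of the difference itself, with 2.35 more log2 units in g2_1 than in g3_4 (limma, adjusted p = 0.0115, SE 0.26). All 3 g2_1 arrays, at 11.30 to 11.53, were above all 3 g3_4 arrays, at 8.41 to 9.43. In g2_1 CD70 was also above the control cells and in g3_4 below them. When any 1 array was left out, the adjusted p reached 0.135 for the difference between the clones and 0.126 for the fall in g3_4.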

How the results depend on the processing

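The 36 member values (9 genes in 4 comparisons) were recomputed under the alternatives, 651 values in all, of which 623 kept their direction and side of the threshold, 13 lost a call, 3 gained one and 12 changed sign. Every sign change was of a value that passed nowhere: the g2_1 minus g3_4 difference of TNFSF4 became 0.068 without g2_1 array 1 (-0.14 to 0.068 without any 1 array), 0.01 without g3_4 array 3 and 0.035 without the arrays numbered 1, that of TNFSF8 -0.045 and -0.04 without array 2 of g2_1 or g3_4 (-0.045 to 0.07 without any 1 array), and that of CD40 -0.005 without the arrays numbered 1. TNFRSF9 became -0.0092 and -0.043 in the clones averaged without array 2 of g2_1 or g3_4 (-0.043 to 0.14 without any 1 array), and in g3_4 0.012 without array 1 of g3_4 (-0.36 to 0.012 without any 1 array) and 0.005 without all arrays numbered 1. TNFRSF4 in g3_4 became -0.01 without g3_4 array 1 and -0.06 without control array 3.

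The number of genes called in g3_4, 4, was 2 in a fit of only the groups compared and 1 with a fold limit of 1 log2 unit, and 2 to 4 when any 1 array was left out, with 2 without g3_4 array 1. Called the same way in both clones were 3, 1 with that fold limit and 2 to 3 without any 1 array. Between the clones 1 was called, and 0 to 1 when any 1 array was left out (0 without g2_1 array 2 or 3). In g2_1 it was 4 and in the clones averaged 3 to 4 without any 1 array, with TNFSF9 called in the average at -0.85 (adjusted p = 0.0256) without control array 2. With the array number as a replicate block the counts were 4 in g2_1, 4 in g3_4, 3 in both, 3 in the clones averaged and 1 between the clones, so the block changed none of these calls. Calls between the clones over all transcript clusters, 11 here, numbered 27 with the block, 50 with array weights, 32 in a fit of only the clones, 29 without the arrays numbered 1, 7 without the clusters under the median level and 4 to 45 without any 1 array. Centring arrays on their median brought TNFSF8 in the clones averaged to 0.27 (adjusted p = 0.0451) and lowered the share of falls among calls in the clones averaged from 54.7% to 31.5%. No other symbol row existed for any of the 9 genes, so that alternative was not run. CD27, TNFRSF4, TNFSF8 and TNFSF4 lie below one or both of the limits on low levels and gave no value there. The causes of these differences were not tested.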

Other observations

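Among 16 markers of Hodgkin cells, which include TNFRSF8, 2 rose and 6 fell in both clones, against 4.48% and 6.97% of all transcript clusters. The marker lists were also chosen with earlier results of these data known. IL13RA1, a chain of the receptor for interleukin 13, was at 4.22 in g2_1, 4.19 in g3_4 and 9.69 in control cells, and FCER2 at 6.44, 6.83 and 12.11 in the same order. CD274 also fell, while NDRG1 rose by 0.62 with the clones averaged. FCER2, CD274 and TRAF1 also stand in other lists used here.

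Of 9 B cell markers measured, 2 rose and 2 fell in both clones, against the same 4.48% and 6.97% of all transcript clusters. EBF1 and BLK rose by 1.25 and by 0.89 with the clones averaged. The transcription coactivator gene POU2AF1 fell by 1.52 and the B cell identity factor gene PAX5 fell by 0.81. MS4A1, which encodes CD20, was at 4.39 in g2_1, 4.40 in g3_4 and 4.38 in control cells, under the first quartile of the arrays. None of 9 myeloid markers and none of 9 epithelial or stromal markers was called the same way in both clones.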
